A study of Equus caballus with 20 samples.

Results

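The dystrophin complex and the muscle caveolins were followed through 9 genes, Dmd, Utrn, Dag1, Lama2, Sgca, Sgcb, Sgcd, Cav1 and Cav3. Their probes were taken by gene symbol, ignoring case, from the annotation of the array, which gave 15 of 24493 probes, for 9 of 12018 named genes. Symbols written in the mouse style (Cav1) and in capitals (CAV1) were kept apart, and the 15 probes form 12 features, of which 7 had enough measured horses to be tested.

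Dystrophin is a long rod beneath the membrane of the muscle fibre that ties cytoskeletal actin to dystroglycan. Dystroglycan spans the membrane and binds laminin in the basement membrane outside, and the sarcoglycans brace it from the side. Caveolins form the coat of caveolae, small membrane pits that flatten when the membrane is stretched, and the muscle form, caveolin 3, lies close to dystroglycan. In humans, mutations in several of these genes cause muscular dystrophies in which fibres break down.

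The arrays compared French Trotter horses that suffer from recurrent exertional rhabdomyolysis (RER), episodes of fibre breakdown after exercise, with sound horses. Biopsy RNA came from 2 muscles of 5 RER horses, the gluteus medius of the rump and the longissimus lumborum of the back, and from 10 control horses whose RNA was combined into 1 pool per muscle. Each RER sample was hybridised with the pool of its own muscle on 2 arrays with the dyes exchanged, 20 arrays in all, and the RER horses carried high muscle enzyme activity in plasma. Age, sex and the time between an episode and the biopsy are not given in the sources used here.

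All values below are log2 ratios from the deposited table, centred on the median of each array and averaged over the dye-swapped arrays of a horse and muscle. The labels do not say which RNA is the numerator. RER over pool is taken as likely because they list RER RNA as channel 1 throughout. Arrays of the same dye and muscle did not all run the same way across probes. Of 40 correlations between 2 such arrays of different horses, 30 were above 0 and 10 below, from -0.341 (Cy3 arrays of gluteus horses 2 and 4) to 0.497, which leaves the direction unsettled without showing the numerator. If all signs are turned, every value keeps its size. Whether all arrays run alike is a separate doubt, since the dye-swapped arrays of 4 of the 10 samples correlated below 0. With the Cy3 arrays of those 4 pairs turned, no member passed either, but sizes moved, as for Cav3 in gluteus from -0.02 to 0.15, Dag1 in gluteus from 0.13 to 0.30 and Cav1 in gluteus from -0.14 to -0.01. The control horses of a muscle enter as a single pooled sample, so how much they differ among themselves is missing from every test, and the number of RER horses limits the precision. The arrays fell into 10 dense ones with 22032 to 24050 measured probes (gluteus horses 1, 2 and 3, longissimus horses 1 and 2) and 10 sparse ones with 8966 to 17708. Probes with capital symbols gave no value on any dense array. Some arrays also spread more widely over all probes. The median absolute deviation was 0.79 and 0.57 on the arrays of longissimus horse 1 and 0.64 and 0.54 on those of longissimus horse 4. On every other array it was at most 0.39. A ratio to a pool of the same muscle shows no level, so the labelled tissue could not be checked by the level of fibre markers. The array held 13 fibre marker features, and 10 of them were tested.

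No gene of the complex passed the threshold of 0.05 in adjusted p (limma with Benjamini-Hochberg adjustment over all 10176 tested features). The count was 0 of 7 in gluteus, 0 of 7 in longissimus and 0 of 7 in their difference, beside 0% of all features in each. The mean of both muscles gave 0 of 6, again beside 0%. At an unadjusted p under 0.05 there were 0 of 7 in gluteus (1.84% of all features), 1 of 7 in longissimus (4.19%), 0 of 7 in the difference (1.82%) and 0 of 6 in the mean (1.9%). The single gene was Lama2, the laminin chain that dystroglycan holds.

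The median of the 7 tested genes was -0.02 in gluteus, where the median of all features was -0.01, with 3 genes above 0 and 4 below. In longissimus the median of the 7 was 0.05 against 0.00 over all features, with 4 above and 3 below. In the mean of both muscles 1 of 6 was above 0 and 5 below, with a median of -0.02 against -0.01 over all features. These medians mix genes of both signs and are no test of the complex as a group. Members differed in how far their single horses lay from 0, as the plot of values by horse shows.

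**Figure D1:**
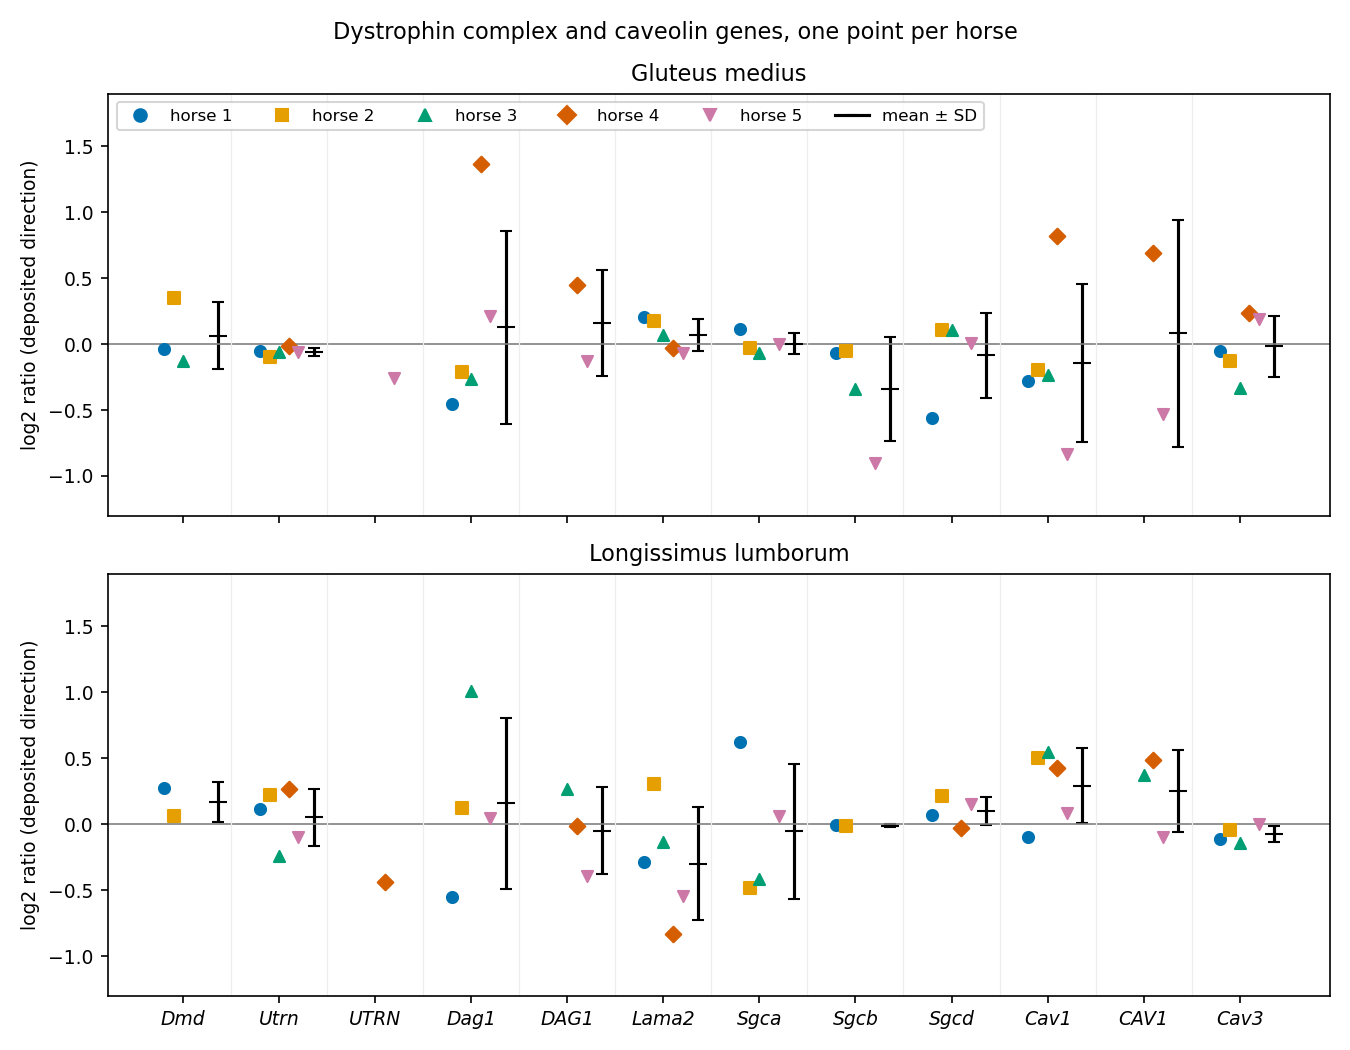
Log2 ratio to the control pool (vertical axis) of each dystrophin complex and caveolin feature in gluteus medius (top) and longissimus lumborum (bottom). Each marker is 1 horse, and black bars give mean ± SD where at least 2 horses were measured. Dag1 and Cav1 of gluteus horse 4 lie at 1.36 and 0.82, above the other gluteus horses, while Utrn of all 5 gluteus horses lies within 0.10 of 0.

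Dystrophin itself was not tested, since both dyes of a pair were measured on dense arrays alone. The first Dmd probe (NM_007868_13001) had log2 ratios of -0.22, 0.22 and -0.13 in gluteus horses 1, 2 and 3 and of 0.38 and 0.19 in longissimus horses 1 and 2. The second (U15218_30) had 0.15, 0.49 and -0.13 in the same gluteus horses and 0.17 and -0.06 in the same longissimus horses. Both probes were on opposite sides of 0 in 2 of the 5 shared samples. The dyes parted the second probe widely, as in gluteus horse 2, where the Cy3 array read -0.42 and the Cy5 array 1.39. Over horses the Dmd feature averaged 0.06 ± 0.26 (SD, n = 3) in gluteus and 0.17 ± 0.15 (SD, n = 2) in longissimus, within the spread of its horses in gluteus.

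Utrophin is the close relative of dystrophin that binds the same partners and is enriched at the neuromuscular junction of adult muscle. Its gluteus log2 ratios in horses 1 to 5 were -0.05, -0.10, -0.06, -0.02 and -0.06. Every gluteus horse was thus below 0, as in 4.23% of all tested features, and the SD over horses of 0.03 stood at percentile 0.344 of all features. The fitted gluteus value was -0.06 ± 0.08 (SE, adjusted p = 1). In longissimus the horses had 0.11, 0.22, -0.24, 0.26 and -0.10, with a fitted value of 0.05 ± 0.08 (SE, adjusted p = 0.89). Longissimus horses lay on both sides of 0 and overlapped the gluteus horses.

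The even gluteus values of Utrn were a mean of probes that differed from each other. One probe (NM_011682_359) had -0.13, -0.34, -0.16 and 0.19 in gluteus horses 1, 2, 3 and 5. The other (Y12229_10328) had 0.03, 0.14, 0.03, -0.02 and -0.31 in gluteus horses 1 to 5. Where both probes were measured, they shared a sign in 2 of 6 samples. Taken alone, the second probe had a fitted gluteus value of -0.03 ± 0.09 (SE, adjusted p = 1). The capital probe UTRN was measured on both dyes in gluteus horse 5 at -0.25 and in longissimus horse 4 at -0.43, where its 2 arrays read 0.23 and -1.10.

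Dystroglycan, the hub that is cut into an outer laminin-binding subunit and a subunit spanning the membrane, had the widest spread of the tested members. The Dag1 log2 ratios of gluteus horses 1 to 5 were -0.46, -0.21, -0.26, 1.36 and 0.21. Horses 1, 2 and 3, on dense arrays, lay below 0 (mean -0.31), and horses 4 and 5, on sparse arrays, above it (mean 0.79). The SD of 0.73 stood at percentile 97.5 of all features, whose median SD was 0.19. The fitted value of 0.13 ± 0.27 (SE, n = 5, adjusted p = 1) was smaller than its error, and without horse 4 it was -0.18.

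In longissimus the Dag1 log2 ratios of horses 1, 2, 3 and 5 were -0.55, 0.13, 1.01 and 0.05, and horse 3 stood highest. The fitted value was 0.16 ± 0.30 (SE, n = 4, adjusted p = 0.925), and without horse 3 it was -0.13. Horse 4 did not enter because 1 of its arrays had no value. Its lone Cy5 array read -1.995, and with such single arrays used the fitted longissimus value was -0.27. Here too the horses on dense arrays averaged lower, at -0.21, than those on sparse arrays, at 0.53. The difference between the muscles was -0.03 ± 0.40 (SE, adjusted p = 1) in a fit where gluteus horse 4 has no longissimus partner. With the horse as a block it was -0.34 (adjusted p = 0.943), and without horse 3 it was 0.35 (adjusted p = 1).

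Probes for dystroglycan differed in size. The first Dag1 probe (NM_010017_4327) gave 1.05 and 1.68 on the Cy3 and Cy5 arrays of gluteus horse 4, and 0.96 and 1.06 on those of longissimus horse 3. In those samples the second Dag1 probe (AA407500_108) had 1 array between them, 0.24 on the Cy5 array of gluteus horse 4. The Dag1 probes shared a sign in 6 of 7 samples with a median difference of 0.19. The capital probe DAG1 read 1.02 and -0.13 on the arrays of gluteus horse 4 and had horse values of 0.45 there, -0.13 in gluteus horse 5, and 0.26, -0.02 and -0.39 in longissimus horses 3, 4 and 5. It shared a sign with the first Dag1 probe in 2 of 4 samples, with a median difference of 0.67. The high value of gluteus horse 4 was above 0 in 4 of its 5 dystroglycan values, at heights from 0.24 to 1.68.

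**Figure D2:**
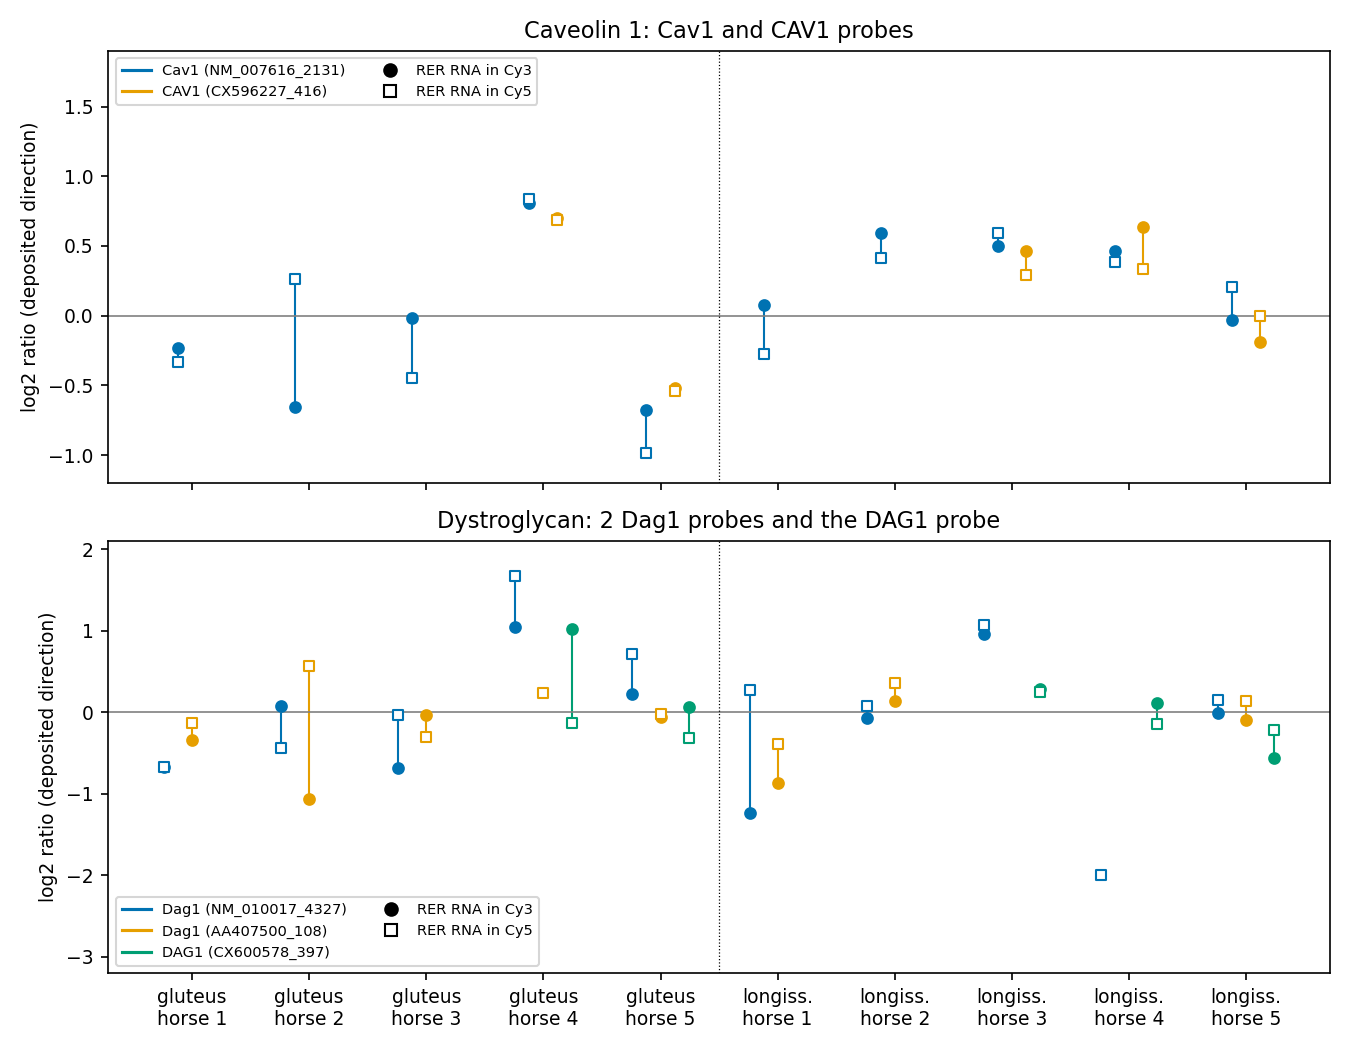
Log2 ratio on every array (vertical axis) of the caveolin 1 probes (top) and the dystroglycan probes (bottom) for each horse and muscle. Filled circles are arrays with RER RNA in Cy3, open squares those with RER RNA in Cy5, and a line joins the dye-swapped arrays of 1 sample. For caveolin 1 all 4 array values of gluteus horse 4 lie between 0.68 and 0.83, whereas the dystroglycan values of that sample run from -0.13 to 1.68.

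Laminin alpha 2 is the heavy chain of merosin, the laminin of the muscle basement membrane to which dystroglycan and integrin alpha 7 beta 1 bind. Lama2 in longissimus horses 1 to 5 had log2 ratios of -0.29, 0.31, -0.14, -0.83 and -0.55. Horse 2 was above 0 and the other 4 below, with horse 4 lowest. The fitted value of -0.30 ± 0.13 (SE, n = 5, 95% interval -0.59 to -0.01) had an unadjusted p of 0.0466 and an adjusted p of 0.827 in limma, so it did not pass. That SE shares the spread of both muscles, and the Lama2 SD over horses was 0.12 in gluteus and 0.43 in longissimus. With longissimus fitted alone the value was -0.30 ± 0.17 (SE, limma, unadjusted p = 0.12, adjusted p = 0.985). On the dense arrays the mean was 0.01 (n = 2) and on the sparse arrays -0.51 (n = 3). Without horse 2 the fitted value was -0.45 (adjusted p = 0.562), and leaving out the lone horse above 0 had to lower it. Without horse 4, the lowest, the fitted value was -0.17 (adjusted p = 1).

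Gluteus gave Lama2 log2 ratios of 0.21, 0.17, 0.07, -0.03 and -0.07 in horses 1 to 5. These values lay closer together than in the back, with a fitted value of 0.07 ± 0.13 (SE, adjusted p = 1). The gluteus value was the higher one in 4 of 5 horses, and the difference between muscles was 0.37 ± 0.19 (SE, unadjusted p = 0.0756, adjusted p = 1). Between the muscles the horses overlapped, as for each of the 7 tested genes. Over all features 0.334% did not overlap with gluteus higher and 0.423% with longissimus higher.

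The dyes moved with the Lama2 values. Its Cy3 array was higher than its Cy5 array in 10 of 10 pairs, with means of 0.03 and -0.26. In longissimus the Cy5 arrays alone gave a fitted value of -0.44 (adjusted p = 0.132) and the Cy3 arrays alone -0.16 (adjusted p = 0.529). Each horse value averages 1 Cy3 and 1 Cy5 array, so a constant offset between the dyes cancels in it. In longissimus horse 4, where Lama2 was lowest, the fibre markers Ckm, the muscle creatine kinase, and Casq1, the calcium store protein of fast fibres, stood at -4.78 and -4.88. The capital probe CKM read -0.17 in the same sample, so the creatine kinase probes differed there. The median of the 9 fibre markers measured there was -0.31, with 4 above 0. Their part in the Lama2 value was not tested, and in bulk tissue fewer cells of a type and less RNA per cell cannot be told apart.

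**Figure D3:**
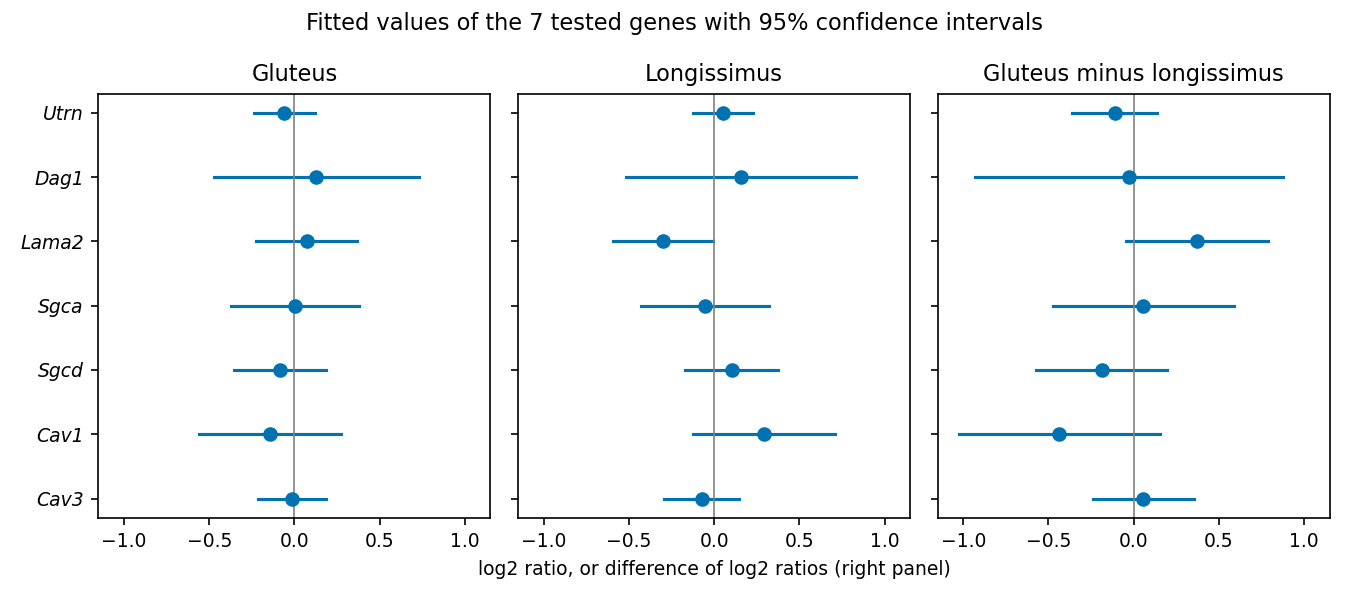
Fitted log2 ratios of the 7 tested genes in gluteus (left) and longissimus (middle) and the difference gluteus minus longissimus (right), with lines for the 95% confidence intervals. The horizontal axis is on the log2 scale. Only the Lama2 interval in longissimus (-0.59 to -0.01) leaves out 0, without adjustment for the number of features tested. The SE behind each interval uses the spread of both muscles.

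Of the sarcoglycans, single-pass proteins that stabilise dystroglycan at the membrane, Sgca and Sgcd were tested and Sgcb was not. Sgca encodes the alpha subunit, confined to striated muscle, and had gluteus log2 ratios of 0.11, -0.03, -0.07 and 0.00 in horses 1, 2, 3 and 5. In longissimus the same horses had 0.63, -0.48, -0.42 and 0.06. Gluteus values were close to 0, and longissimus values spread to both sides. The fitted values were 0.00 ± 0.17 (SE, n = 4, adjusted p = 1) and -0.05 ± 0.17 (SE, n = 4, adjusted p = 0.959). The longissimus value was -0.28 without horse 1 (limma, unadjusted p = 0.0602, adjusted p = 0.682) and 0.09 without horse 2. These are the highest and the lowest horse, so leaving them out had to move the value down and up.

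Sgcd, the delta subunit that pairs with the beta subunit in the core of the complex, had gluteus log2 ratios of -0.56, 0.11, 0.11 and 0.01 in horses 1, 2, 3 and 5. Horse 1 stood alone below 0. Longissimus horses 1, 2, 4 and 5 had 0.07, 0.22, -0.03 and 0.15. The fitted values were -0.08 ± 0.12 (SE, adjusted p = 1) and 0.10 ± 0.12 (SE, adjusted p = 0.863), and the difference was -0.19 ± 0.17 (SE, adjusted p = 1). Without horse 1 the gluteus value was 0.07 and the difference -0.04. In the 3 horses measured in both muscles the gluteus value was the lower one. Over all features 4.93% were lower in gluteus in every measured horse. Of those 10176 features 10063 had at least 4 horses measured in both muscles, so the share does not apply to 3 horses. The dyes parted Sgcd in the direction opposite to Lama2, with the Cy5 array higher in 7 of 8 pairs, means of -0.25 in Cy3 and 0.27 in Cy5, and a shared sign in 2 of 8 pairs.

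Sgcb, the beta subunit, was measured in 4 gluteus horses and only 2 longissimus horses. Its gluteus log2 ratios were -0.07, -0.05, -0.34 and -0.90 in horses 1, 2, 3 and 5, a mean of -0.34 ± 0.40 (SD, n = 4). All were below 0, and horse 5 was lowest on both of its arrays, at -0.64 and -1.16. Longissimus horses 1 and 2 had 0.00 and -0.02.

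Caveolin 1 is the coat protein of caveolae in endothelium, adipocytes, smooth muscle and fibroblasts, and little of it is made by adult muscle fibres. Cav1 in gluteus horses 1 to 5 had log2 ratios of -0.28, -0.20, -0.23, 0.82 and -0.83. Horses 1, 2 and 3 were close together, with horse 4 far above and horse 5 far below them. Hence the SD of 0.60 (percentile 95.7 of all features) came with a fitted value of -0.14 ± 0.19 (SE, adjusted p = 1). The close values of horses 1, 2 and 3 are means over dyes. Their Cy3 and Cy5 arrays read -0.23 and -0.33 in horse 1, -0.66 and 0.26 in horse 2, and -0.02 and -0.44 in horse 3. Without horse 4 the fitted value was -0.39 (limma, unadjusted p = 0.0204, adjusted p = 0.966), and leaving out the lone horse above 0 had to lower it. Without horse 5 the fitted value was 0.03.

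In longissimus Cav1 had log2 ratios of -0.10, 0.50, 0.55, 0.43 and 0.08 in horses 1 to 5. Horse 1 was below 0 and the others above. The fitted value was 0.29 ± 0.19 (SE, unadjusted p = 0.15, adjusted p = 0.827), with means of 0.20 on dense and 0.35 on sparse arrays. Gluteus was the lower muscle in 4 of 5 horses, and the difference was -0.44 ± 0.27 (SE, 95% interval -1.02 to 0.15, unadjusted p = 0.131, adjusted p = 1). It was -0.44 ± 0.21 (SE) on dense and -0.36 ± 0.51 (SE) on sparse arrays, where gluteus had horses 4 and 5 alone, at 0.82 and -0.83. Within an array group the muscles hold partly different horses. Without horse 4, the exception, the difference was -0.64 (limma, unadjusted p = 0.00887, adjusted p = 0.99), and leaving out the horse of opposite sign had to widen it. Without horses 1, 2 and 3 in turn it was -0.50, -0.37 and -0.35 (limma, unadjusted p = 0.149, 0.288 and 0.308). Horse 5 had the widest difference, and without it the fitted values were 0.03 in gluteus and 0.34 in longissimus.

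The capital probe CAV1 (CX596227_416) measured caveolin 1 a second time on the sparse arrays. It had log2 ratios of 0.69 and -0.53 in gluteus horses 4 and 5 and of 0.37, 0.48 and -0.10 in longissimus horses 3, 4 and 5. The Cav1 probe (NM_007616_2131) had 0.82, -0.83, 0.55, 0.43 and 0.08 in those samples. The probes shared a sign in 4 of 5, with a median difference of 0.17, and longissimus horse 5, near 0, was the exception. Dye-swapped arrays of CAV1 shared a sign in 5 of 5 pairs, all sparse, and those of Cav1 in 7 of 10, dense pairs included. On the sparse arrays the Cav1 dyes differed in sign only in longissimus horse 5, at -0.03 in Cy3 and 0.20 in Cy5. Both probes placed gluteus horse 4 highest and gluteus horse 5 lowest among the samples that they share.

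**Figure D4:**
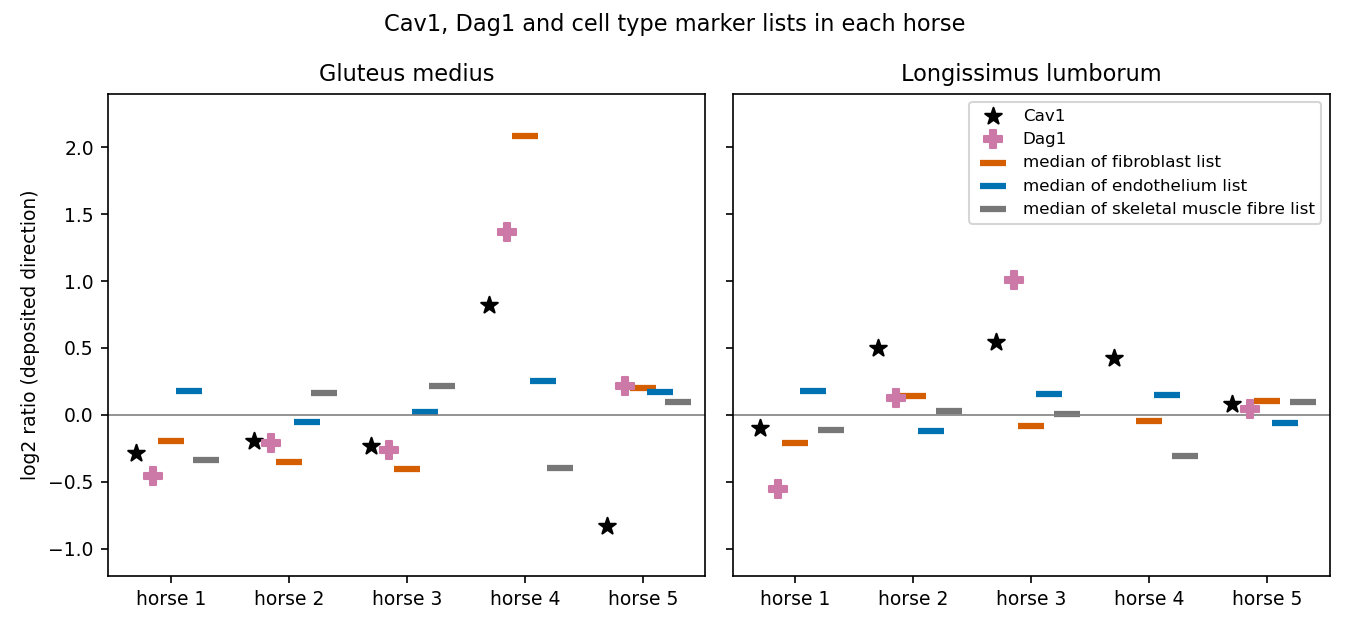
Log2 ratios (vertical axis) of Cav1 (stars) and Dag1 (crosses) and the medians of the fibroblast, endothelium and skeletal muscle fibre marker lists (bars) in each horse of gluteus medius (left) and longissimus lumborum (right). In gluteus horse 4 Cav1 at 0.82 and Dag1 at 1.36 stand beside a fibroblast median of 2.08, while in gluteus horse 5 Cav1 at -0.83 stands beside a fibroblast median of 0.20.

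Fibroblast markers, and less so nerve and Schwann cell markers, stood out in gluteus horse 4, the sample with high Cav1 and Dag1. The median of its 6 fibroblast markers was 2.08, with 5 of 6 above 0, against medians of -0.19, -0.35, -0.41 and 0.20 in gluteus horses 1, 2, 3 and 5. Col1a2 and Lum, a collagen chain and a matrix proteoglycan, stood at 3.63 and 2.50 there, and Fbln1 at -0.02. The endothelial markers had a median of 0.25, with 3 of 3 above 0, beside 0.18, -0.06, 0.02 and 0.17 in gluteus horses 1, 2, 3 and 5. In gluteus horse 4 the fibre markers had a median of -0.40, with 1 of 8 above 0. For nerve and Schwann cell markers the median was 0.50, with 3 of 3 above 0, and for macrophage markers -0.06, with 1 of 2. The smooth muscle and adipocyte medians were -0.14 and -0.20, with 1 of 4 and 1 of 2 above 0. Gluteus horse 5, lowest in Cav1, had an endothelial median of 0.17 and a fibroblast median of 0.20, and longissimus horses 2, 3 and 4, the highest of that muscle in Cav1, had fibroblast medians of 0.14, -0.08 and -0.04. Their endothelial medians were -0.12, 0.16 and 0.15. The part of other cell types in these values was not tested.

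Caveolin 3, the muscle form, had mean values near 0 with horses on both sides in gluteus. Cav3 had log2 ratios of -0.05, -0.12, -0.33, 0.23 and 0.19 in gluteus horses 1 to 5 and of -0.11, -0.04, -0.14 and 0.00 in longissimus horses 1, 2, 3 and 5. In gluteus the horses on dense arrays were below 0 (mean -0.17) and those on sparse arrays above (mean 0.21), and within that muscle the effect of the array group and that of the animals cannot be told apart. The fitted values were -0.02 ± 0.09 (SE, adjusted p = 1) and -0.07 ± 0.10 (SE, adjusted p = 0.875). The gluteus SD of 0.23 stood at percentile 62.9 of all features, and without horse 3 the gluteus value was 0.06.

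Dye-swapped arrays of 1 sample measure the same RNA, and their agreement shows how far a single value can be read. Over the 15 probes the arrays of a pair shared a sign in 34 of 60 pairs of values on dense arrays (56.7%, all probes 45%) and in 30 of 45 on sparse arrays (66.7%, all probes 61.8%). The median difference between the dyes was 0.28 on dense and 0.19 on sparse arrays for these probes. Of the fitted values within a muscle, only those of Lama2 (-0.30) and Cav1 (0.29) in longissimus exceeded the larger of these differences in size, and by little. That difference lies between single arrays and is not the error of a fitted value, which averages several horses. Across all probes the arrays of a pair correlated below 0 in 4 of the 10 pairs, all of them dense.

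**Figure D5:**
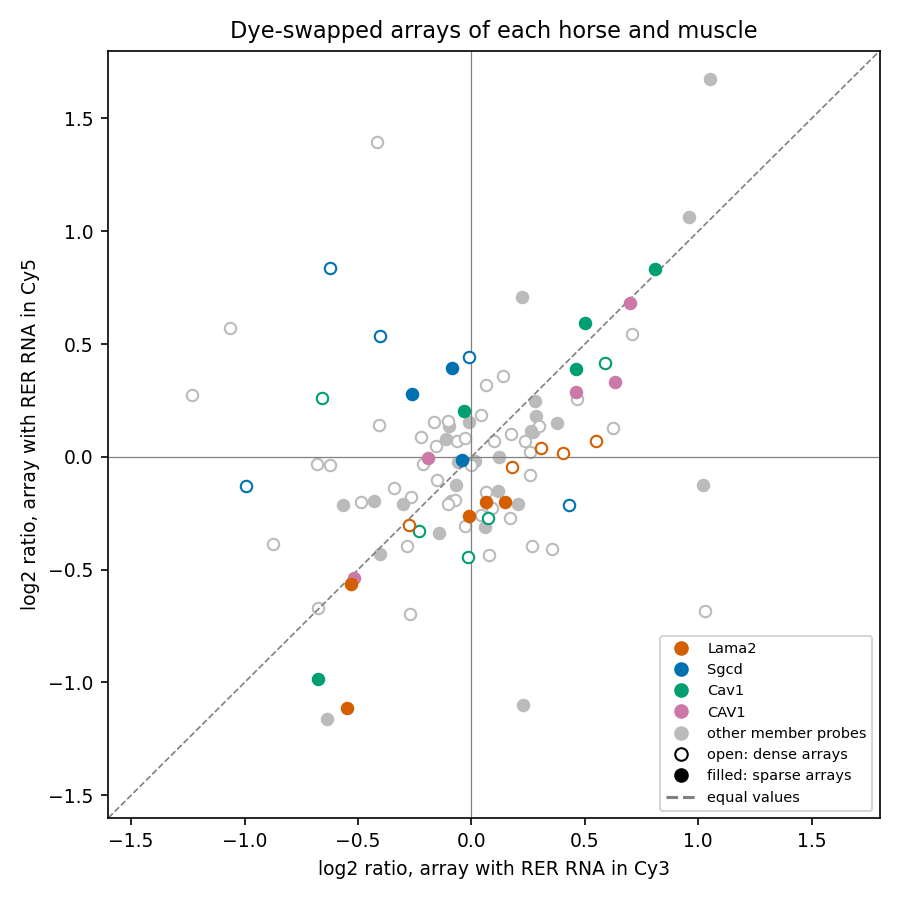
Log2 ratio on the array with RER RNA in Cy5 (vertical axis) against that with RER RNA in Cy3 (horizontal axis) for each member probe, horse and muscle with both values. Open points are dense arrays, filled points sparse arrays, and the dashed line marks equal values. Lama2 lies below the line in 10 of 10 pairs and Sgcd above it in 7 of 8. CAV1, measured on sparse arrays alone, has the same sign in 5 of 5.

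Other genes of the pathway were read from lists. None of the 25 tested features in these lists passed the threshold in any comparison. The sarcoglycan list held 4 features, of which Sgcz was tested, with log2 ratios of -0.08 ± 0.14 (SE, adjusted p = 1) in gluteus and -0.20 ± 0.13 (SE, adjusted p = 0.827) in longissimus. The latter was -0.03 without horse 4, which stood at -0.87. Sgce had means of -0.06 (n = 5) and 0.07 (n = 3) in gluteus and longissimus. Sarcospan, the small membrane protein bound to the sarcoglycans, differed by probe. The mouse-style Sspn had means of 0.07 (n = 4) and 0.16 (n = 3), whereas the capital SSPN had -1.28 (n = 2) and -0.68 (n = 3) and was below 0 in all 5 samples that measured it. In gluteus horse 5 and longissimus horse 5, where both were measured, Sspn was 0.07 and 0.41 and SSPN -1.68 and -0.37.

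Among the syntrophins and dystrobrevins, adaptors that bind the tail of dystrophin, 2 of 5 tested features were above 0 in gluteus and 2 in longissimus, and 0 passed. The smallest p-values belonged to Dtnb (0.11 ± 0.12 SE, p = 0.388) and Nos1 (-0.07 with p = 0.488), the nitric oxide synthase that syntrophin anchors, in gluteus. In longissimus they belonged to Sntb1 (-0.59 ± 0.41 SE, p = 0.179) and Dtna (-0.39 ± 0.31 SE, p = 0.24), with an adjusted p of at least 0.827. Both rested on longissimus horse 4, at -2.94 and -2.36, whose arrays spread widely over all probes. Without that horse they were -0.01 and 0.10. Without horse 2, Dtnb in gluteus was -0.06.

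The laminin chains and other dystroglycan ligands had 1 of 6 tested features above 0 in gluteus and 3 in longissimus, and 0 passed. In gluteus the fitted log2 ratios were 0.06 for Agrn, the agrin of the synapse, -0.02 for Hspg2, the perlecan of the basement membrane, -0.02 for Lama1, -0.04 for Lama5, -0.03 for Lamb2 and -0.09 for Lamc1. Longissimus gave 0.09, 0.14, -0.14, -0.39, -0.02 and 0.18 in the same order. Horse 4 stood at -2.11 in Lama5 and -0.94 in Lama1, and without it the longissimus values were 0.04 and 0.05, while Lamc1 was 0.02. Without horse 1, Lamb2 in longissimus was 0.06. The smallest p-values were 0.595 for Agrn and 0.615 for Lamc1 in gluteus and 0.176 for Hspg2 and 0.218 for Lama5 in longissimus. Lama4, an untested chain, had means of -0.09 (n = 4) and 0.28 (n = 2), and the capital HSPG2 0.34 (n = 2) and -0.32 (n = 3).

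Of the enzymes that put the laminin-binding sugars on dystroglycan, 3 of 5 tested features were above 0 in either muscle and 0 passed. Dpm1, a subunit of the mannose donor synthase, was at 0.17 ± 0.10 (SE) in gluteus, with 5 of 5 horses above 0 (5.5% of all features), and at -0.18 ± 0.10 (SE) in longissimus. Its difference between muscles, 0.34 ± 0.14 (SE), was above 0 in 5 of 5 horses, as in 5.27% of all features, with an unadjusted p of 0.0297 and an adjusted p of 1. Pomt2 in gluteus (0.17 ± 0.18 SE, p = 0.362) and Pomgnt1 in longissimus (-0.17 ± 0.13 SE, p = 0.209) came next. Without horse 2, at 0.90, Pomt2 was -0.07, and without horse 1, at -0.64, Pomgnt1 was -0.06.

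Integrin alpha 7 beta 1 is the other laminin receptor of the fibre, and talin, ankyrins and keratins join both systems to the cytoskeleton. In this list 3 of 6 tested features were above 0 in gluteus and 4 in longissimus, and 0 passed. Tln1 in gluteus (0.37 ± 0.26 SE, p = 0.184) was highest in horse 4 at 1.87, where Itga7 was also high at 1.76. Without that horse, Tln1 was 0.00 and Itga7 -0.28. Ank3 (-0.10 ± 0.09 SE, p = 0.25) followed in gluteus, and Krt19 (-0.43 ± 0.27 SE, p = 0.138) and Ank2 (-0.18 ± 0.14 SE, p = 0.217) came first in longissimus. Krt19 was -0.03 without horse 4, at -2.03, and without horse 1 Ank2 was -0.02 in longissimus and Ank3 -0.04 in gluteus. The untested probes for integrin beta 1 went apart, with Itgb1 at -0.08 and 1.45 in gluteus horses 4 and 5 and ITGB1 at 1.41 and -0.02.

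Of the other caveolar genes 2 features were tested and 0 passed. Ehd2, an ATPase at the neck of caveolae, had fitted log2 ratios of -0.04 ± 0.08 (SE, adjusted p = 1) in gluteus and 0.05 ± 0.08 (SE, adjusted p = 0.888) in longissimus. Pacsin3, a membrane-bending protein of muscle caveolae, had -0.18 ± 0.19 (SE, adjusted p = 1) and -0.27 ± 0.19 (SE, adjusted p = 0.827). Without horse 4, at -1.34, the longissimus value of Pacsin3 was -0.01, and without horse 1 its gluteus value was -0.10. Pacsin2, a relative that was not tested, had means of 0.06 (n = 3) and 0.00 (n = 2). Cav2, the partner of caveolin 1, was measured on both dyes on dense arrays alone, at -0.46 and -0.29 in gluteus horses 1 and 3 and 0.20 and 0.18 in longissimus horses 1 and 2. In the horse that both muscles share, gluteus was the lower one for Cav2, as for Cav1.

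Cav1, Lama2 and Utrn were measured in all 10 samples, and their patterns differed from each other. Across the 10 samples, which share horses, pools and array groups, Pearson's r was -0.177 between Cav1 and Lama2, 0.233 between Cav1 and Utrn and -0.255 between Lama2 and Utrn. Among 3742 features with a symbol and 10 values, those most like Cav1 were Kif3c (r = 0.887), App (r = 0.88) and Thrap3 (r = 0.863). Lama2 was most like Lamb3 (r = 0.959), Col19a1 (r = 0.942) and Camkv (r = 0.939), and Utrn most like Dhx35 (r = 0.868), Hnrnpa1 (r = 0.844) and Tm9sf2 (r = 0.823). These are the highest of many correlations and serve as a description.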

How the data were processed

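Per the labels' protocols, total RNA was extracted with TRIZOL, labelled indirectly with Cy3 or Cy5, and the results of each dye swap were averaged before statistics. The authors deposited log2 ratios of 24493 probes on 20 arrays; the scale was read from the values, and the scanner, background correction, normalization and the filter that left blanks are not given in the sources used here. Gene symbols came from the platform annotation (13692 probes with a symbol, 10801 with none).

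Here each array was centred on its median, a dye-swapped pair became 1 value if neither array was blank, and probes were merged by symbol into 22988 features. The test was limma 3.58.1 (R 4.3.3, with statmod 1.5.0) on the 10176 features that had 4 or more of the 5 horses in both muscles. A single fit gave gluteus, longissimus and their difference, and per-horse means gave a fit of both muscles together over 10063 features. The SE of a muscle uses the spread of both. The horses are the same in both muscles per the labels. As a check, their deviations correlated within horse at 0.58, 0.304, -0.0976, 0.0206 and -0.00245. The deposited orientation was kept for every array, and turning 1 array of each negatively correlating pair was an alternative. The procedure was also run on simulated data with independent normal noise of 1 SD per feature. That noise lacks the within-horse correlation and the unequal spread of arrays in these data, so their effect was not tested. How well the probes match horse RNA was not tested. Every member is named. From each list the 2 genes with the smallest p per muscle are named, and sarcoglycan, laminin and caveolar genes all. The members and lists were chosen with earlier results of these data known. No sequence is shown, since no sequence table was used here.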

Additional observations from a re-analysis of the deposited data

Results flagged for a closer look

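Sgcd in gluteus horse 1, at -0.5623, lay far below the other 3 measured gluteus horses, the nearest of which stood at 0.01, and the gap made up a fraction of 0.849 of the whole range (n = 4). Its arrays read -0.99 in Cy3 and -0.13 in Cy5. It was the only such sample among 15 groups of 4 or 5 horses examined, and chance gives about 1 in 20 groups.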

How the results depend on the processing

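No member passed the threshold under any alternative, and the lowest adjusted p was 0.132 (Lama2 in longissimus, Cy5 arrays alone). Of 490 member values over 27 results, 423 kept their sign and 67 changed it, most often with dense arrays alone (10 of 27) and Cy3 arrays alone (9 of 27). The kept signs include settings that use the same horse means and so could not turn a sign. These are a filter at 3 horses, no filter, unmoderated variances and each muscle fitted alone, with 0 changes in each. Turning the Cy3 array in each of the 4 negatively correlating pairs changed 7 of 27, with a lowest adjusted p of 0.247. The sign held throughout for 5 results, Cav1 in longissimus, Utrn in gluteus and the differences of Cav1, Lama2 and Sgcd, though the last shrank from -0.19 to -0.04 without horse 1.

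Over all features the number past the threshold was 0 in each comparison. In gluteus it was 2 with Cy3 arrays alone, 4 with Cy5 arrays alone and 1 with sparse arrays alone, in longissimus 2, 92 and 1, and in the mean of both muscles 7 with Cy5 arrays and 1 with sparse arrays alone. The member median was -0.13 in longissimus with Cy5 arrays alone and 0.21 in the difference with sparse arrays alone. The cause was not tested.

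With the horse as a replicate block, 0 of 6 members passed in the difference, and Lama2 was at 0.37 (unadjusted p = 0.0426, adjusted p = 0.943). It changed no call, and the sign of Cav3 turned there, at -0.01, while Dag1 went from -0.03 to -0.34. Leaving out each horse left 0 calls, with member medians of -0.08 to 0.03 in gluteus, 0.00 to 0.09 in longissimus, -0.09 to -0.04 in the difference and -0.05 to 0.00 in the mean.

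Tests covered 7 of 12 features, with at least 4 horses in each muscle, and pairs with 1 missing array were left out. Values on dense arrays, where the dyes disagree most, carry the Dmd results alone.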

Other observations

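Some arrays gave a member a value where their dye-swapped partner gave none, and these stay outside the comparisons. Dmd (NM_007868_13001) read 0.26 and 0.08 on the Cy3 arrays of gluteus horses 4 and 5 and 0.16 on that of longissimus horse 5, all sparse arrays. Sgcd read -0.80 on the Cy3 array of gluteus horse 4 and -0.69 on that of longissimus horse 3. UTRN read -0.35 on the Cy3 array of gluteus horse 4 and -0.20 on that of longissimus horse 5. Sgca read -0.04 on the Cy5 array of longissimus horse 4.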
